A study of Mus musculus with 12 samples.

Results

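The Notch genes described here were 10 members of the signalling pathway, namely the receptors Notch1, Notch2, Notch3 and Notch4, the ligands Jag1, Jag2, Dll1 and Dll4, and the target genes Hes1 and Hey1. They were chosen by symbol. They were read by 12 of the 55681 probes on the array, since Notch1 and Notch2 had 2 probes each, and all 10 were among the 13351 genes, of 20660 named, whose signal was above background on at least 3 arrays. RNA came from mammary tumours of FVB mice that carried the MMTV-wnt1 transgene, in which a viral promoter active mainly in mammary epithelium drives the growth factor Wnt1. Epithelium and stroma were cut out of the same tumour sections by laser capture. The 4 groups of 3 arrays were epithelium from Rarb -/- tumours (KO, replicates 1, 3 and 4), epithelium from Rarb +/+ tumours (WT, replicates 1, 2 and 3), and the stroma of the same 6 tumours. The study compared tumours with and without Rarb, a nuclear receptor for retinoic acid, in each compartment. All groups share the strain and the transgene. Nothing in the labels ties each tumour to a mouse of its own, and the p-values cover only the variation among these 6 tumours.

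Notch receptors sit in the membrane and are bound by ligands of the Jagged and Delta-like families on a neighbouring cell. Ligand binding lets proteases release the intracellular part of the receptor, which enters the nucleus, joins the DNA-binding protein Rbpj and switches on repressors of the Hes and Hey families. In the mammary gland the pathway is known for its part in luminal cell fate, and in blood vessels for its part in endothelial and mural cells.

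The DNA letters that Rbpj is known to bind are GTGGGAA, or TTCCCAC when read on the other strand. Among RefSeq promoters of the GRCm38.p6 build, each taken as the 250 bases before a start of transcription, 5.42% of 32851 windows held at least 1 such match and 0.161% held at least 2. The promoter of Hes5, a pathway target with a signal on all 12 arrays, held 2 matches and is printed as an example of how such a promoter looks, at chr4:154960673-154960922 on the plus strand, with both matches in capitals.
Hes5 promoter: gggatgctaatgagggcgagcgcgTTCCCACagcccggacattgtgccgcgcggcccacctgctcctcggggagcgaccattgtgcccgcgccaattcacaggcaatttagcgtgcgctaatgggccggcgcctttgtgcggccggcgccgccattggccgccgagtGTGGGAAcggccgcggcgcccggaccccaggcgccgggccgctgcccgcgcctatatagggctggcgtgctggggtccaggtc
The 8 receptors and ligands were searched in the same way, and none of their windows held these letters. The targets Hes1 and Hey1 were not searched. This describes only those letters in those windows.

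Each value below is a log2 ratio of the tumour sample, labelled with Cy3, over a common mouse reference RNA, labelled with Cy5, so that 0 means the level of the reference and 1 unit is a doubling. Ratios of different genes are not on one scale, because each depends on that gene's level in the reference. Per array, 37.1% to 47.3% of non-control spots were above background in Cy3, and none was saturated. Non-uniform spots, which were set missing, numbered 211 on WT epithelium 3 and 3 to 16 on the other arrays. Epithelial arrays were all on slide 1 and stromal arrays all on slide 2, so compartment and slide cannot be told apart. On both slides KO samples filled the first row and WT samples the second, and these cannot be told apart from genotype either. The Rarb probe did not separate the genotypes, with KO minus WT at -0.04 in epithelium (limma adjusted p = 0.993) and 1.14 in stroma (adjusted p = 0.402). Because the labels do not place the deletion relative to the probe, its values are no check of the genotypes.

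The stromal samples differed in their levels of cell type markers, and the part of this in the stromal comparisons below was not tested. The mean log2 ratio of 15 luminal epithelial markers (Krt8, Krt18, Krt19 and others) was 3.72 ± 0.26 (SD, n = 3 tumours) in KO epithelium and 3.27 ± 0.29 in WT epithelium. In stroma it was 1.24 ± 0.51 in KO tumours but 2.71 ± 0.51 in WT tumours. The luminal mean of WT stroma thus lay nearer to that of WT epithelium than to that of KO stroma. Between the compartments of WT tumours the median luminal difference was -0.64, and 1 of the 15 markers was higher in stroma. The 14 fibroblast markers (Col1a1, Col1a2, Col3a1 and others) averaged 1.03 ± 0.89 in WT stroma against 3.51 ± 0.29 in KO stroma. Macrophage, endothelial, pericyte, adipocyte and erythroid lists were also higher in KO stroma. The 6 adipocyte markers were at 2.49 ± 2.03 in KO and 0.72 ± 0.30 in WT stroma. The 4 erythroid markers were at 4.57 ± 0.15 in KO and 3.52 ± 0.10 in WT stroma. The 9 macrophage markers (Csf1r, Adgre1, Aif1 and others) were at 3.93 ± 0.24 in KO and 2.21 ± 0.79 in WT stroma. The 16 endothelial markers (Pecam1, Cdh5, Kdr and others) were at 2.64 ± 0.77 and 1.45 ± 0.44, and the 9 pericyte and vascular muscle markers (Pdgfrb, Cspg4, Kcnj8 and others) at 2.29 ± 0.40 and 1.24 ± 0.80. The 11 basal or myoepithelial markers (Krt5, Krt14, Krt17 and others) were lower in KO stroma, at 2.31 ± 0.52 against 3.12 ± 0.06. The 8 lymphocyte markers were at -0.32 ± 0.81 in KO and 0.94 ± 2.84 in WT stroma, where 1 array set the wide spread. In such bulk samples, fewer cells of a type and less RNA per cell cannot be told apart.

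Hey1 was the only Notch gene of the 10 that passed the test between genotypes. It encodes a transcriptional repressor that acts downstream of the receptors. In stroma its log2 ratio was 0.85, 1.16 and 1.03 in the 3 KO tumours and 3.27, 2.68 and 2.46 in the 3 WT tumours. Every KO value was below every WT value, and the gap between the groups was wider than the spread within either. Hey1 was lower in KO stroma by 3.46-fold, a log2 difference of -1.79 (SE 0.28, 95% interval -2.41 to -1.17, limma adjusted p = 0.0084). It was the only member of the 10 past the threshold of 0.05 in this comparison, where 6.45% of all genes passed it (3.52% higher and 2.93% lower in KO). An unadjusted p under 0.05 was reached by Hey1 and Notch2, 2 of the 10, and by 21.5% of all genes. Shares of this size are near the background and say nothing about the 10 genes as a group. The difference was past the threshold in each of the 15 other settings tried, from -1.96 to -1.56. The Cy5 signal of Hey1 in the reference spanned only 0.29 log2 units over the 12 arrays, less than for 89% of genes, and differed by -0.03 between KO and WT stroma. In the Cy3 channel alone the stromal difference was -1.70.

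**Figure D1:**
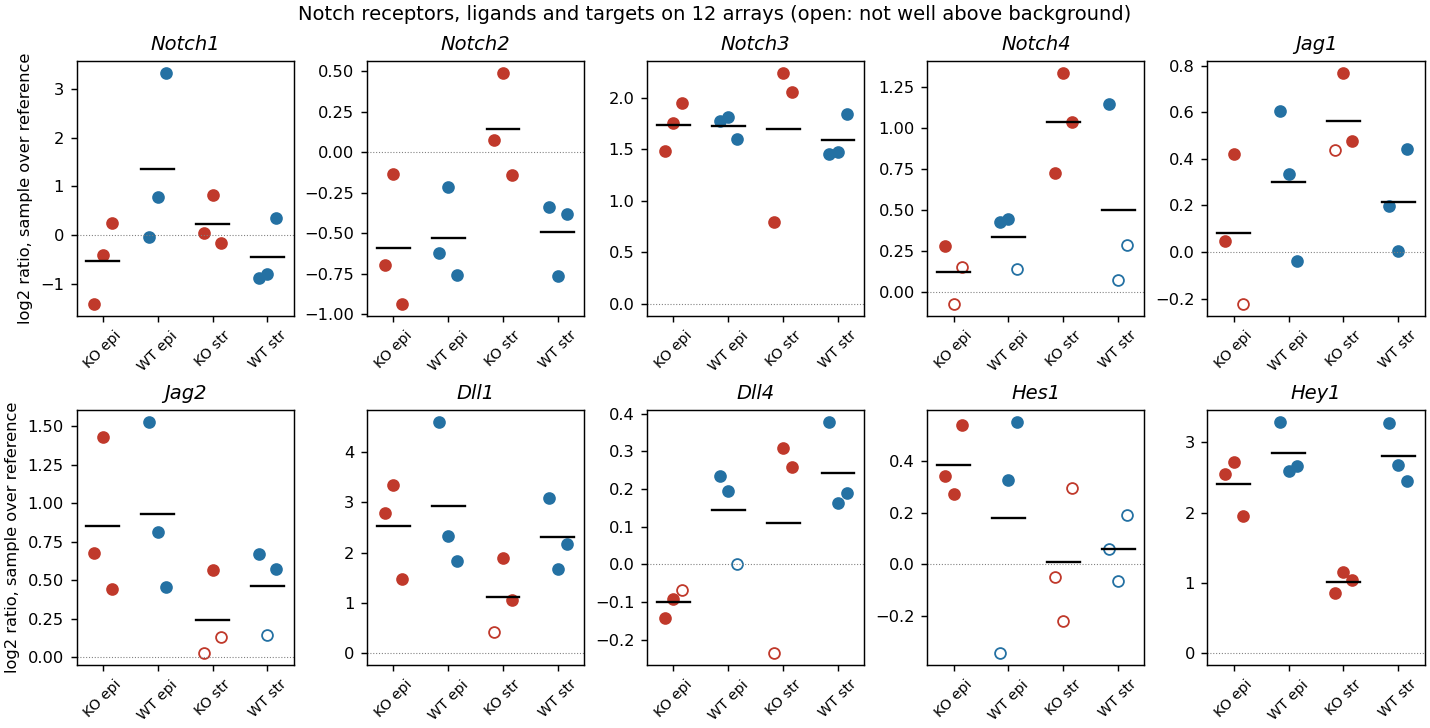
Log2 ratio of sample over reference (vertical axis) for each of the 10 Notch genes in the 4 groups of 3 tumours, with 1 point per array (red KO, blue WT), an axis of its own in each panel, a line at each group mean and open circles where the probe was not well above background. Hey1 lies between 0.85 and 1.16 on the 3 KO stroma arrays and between 1.95 and 3.29 on the other 9.

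In epithelium Hey1 was at 2.54, 2.72 and 1.95 in KO and 3.29, 2.60 and 2.67 in WT tumours. The groups overlapped, and the difference was -0.45 (SE 0.28, limma adjusted p = 0.690). The Cy5 signal of Hey1 differed by 0.24 between these groups, and over the other settings the difference ran from -0.62 to -0.17. In order of level, Hey1 averaged 2.85 ± 0.38 in WT epithelium, 2.80 ± 0.42 in WT stroma, 2.40 ± 0.41 in KO epithelium and 1.01 ± 0.15 in KO stroma (SD, n = 3 each), and neighbours among the first 3 did not differ beyond their spread. Set within each tumour, the stromal level of Hey1 was 31.0%, 33.8% and 53.2% of the epithelial level in the KO tumours, and 98.7%, 106% and 86.4% in the WT tumours. The stromal share was thus 39.3% ± 12.1 (SD, n = 3) in KO and 97.1% ± 10.1 (SD, n = 3) in WT tumours. Within KO tumours, stroma was below epithelium by 1.39 log2 units (a difference of -1.39, SE 0.20, limma adjusted p = 0.0065). Within WT tumours the difference was -0.05 (SE 0.20, adjusted p = 0.976).

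The test of whether the genotype difference itself differed between compartments gave -1.34 for Hey1 (SE 0.28, limma adjusted p = 0.101). That misses the threshold, as did all 13351 genes in the limma fit of this comparison, of which 18.1% had an unadjusted p under 0.05. Over the other settings the adjusted p ranged from 0.0565 to 0.261. The lower Hey1 of KO tumours is therefore not shown to belong to stroma alone.

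Several epithelial markers differed between the same stromal samples. In KO against WT stroma, 7 of the 15 luminal markers were lower and none higher at an adjusted p under 0.05, with a median difference of -1.58 against -0.01 over all genes. The luminal keratin genes Krt8 and Krt18 were lower by log2 differences of -3.18 (limma adjusted p = 0.0316) and -1.71 (adjusted p = 0.0469), while Krt19 was at -1.08 and missed the threshold. Only 1 of the 15 luminal markers had a positive difference, the luminal factor Foxa1 at 1.13. The basal keratin gene Krt5 was at 0.06 and the basal factor Trp63 at -0.06. None of these 3 passed the threshold. In epithelium the luminal list had a median difference of 0.42, the direction opposite to Hey1, and none of its 15 markers passed the limma test (2 had an unadjusted p under 0.05). Wnt1, the product of the transgene, was lower as well, by a log2 difference of -3.53 (adjusted p = 0.000857), and its second probe, not well above background on the 3 KO stroma arrays, gave -2.22. In epithelium the 2 Wnt1 probes disagreed, at -0.09 and -1.22, and the Cy5 signal of the first differed there by -0.71. Of the 11 basal or myoepithelial markers, Procr passed the test as higher and none as lower, 3 of 11 had a positive difference, and the median was -0.83. Of the 16 endothelial markers 15 had a positive difference, with a median of 1.02, and Kdr was the exception at -0.09. Sox18 was the 1 past the adjusted threshold. The part of sample make-up in the Hey1 difference was not tested. All of the luminal list's measured markers were above background on every epithelial array, and at least 12 of 15 on every stromal array. Which cells these transcripts came from was not tested.

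**Figure D2:**
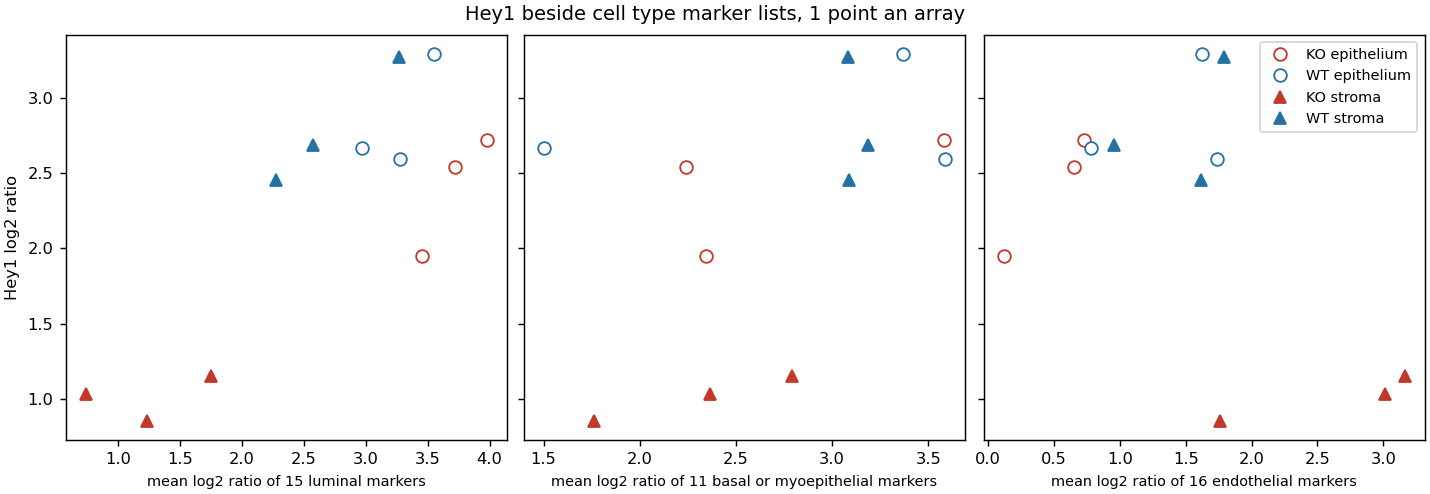
Log2 ratio of Hey1 (vertical axes) against the mean log2 ratio of the luminal, basal and endothelial marker lists (horizontal axes), with 1 point per array, open circles for epithelium, filled triangles for stroma, red for KO and blue for WT. The 3 KO stroma arrays are lowest for both Hey1 and the luminal markers, with luminal means of 0.74 to 1.75, against 2.28 to 3.27 in WT stroma and 2.97 to 3.98 in epithelium.

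The genes whose log2 ratios followed Hey1 most closely over the 12 arrays were Foxi1, Rb1 and Lrrc75b, at Pearson correlations of 0.989, 0.967 and 0.963. In all, 8 of 13268 genes exceeded 0.95. The rank correlations of the 3 were lower, at 0.832, 0.867 and 0.846. These values describe 12 arrays that share slides and tumours.

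Hes1, the other target, is a repressor that many signals besides Notch can induce. In epithelium it was at 0.34, 0.27 and 0.54 in KO and -0.35, 0.33 and 0.55 in WT tumours, a difference of 0.21 with overlapping groups (limma adjusted p = 0.854). It was not well above background on any of the 6 stromal arrays. The log2 ratio in stroma minus that in epithelium was -0.38 in KO tumours (adjusted p = 0.240) and -0.12 in WT tumours (adjusted p = 0.932), and these stromal values are of a signal near background. WT tumour 1 went the other way from the remaining 5, at 0.40. The Cy5 signal of Hes1 was also lower on the stromal slide, by a difference of -0.25.

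Among the receptors, Notch3 had group means that lay closest together. It is known mainly from vascular mural cells and is also present in mammary luminal progenitors. Its log2 ratio in epithelium was 1.49, 1.76 and 1.95 in KO and 1.77, 1.81 and 1.60 in WT tumours. In stroma it was 0.80, 2.24 and 2.05 in KO and 1.45, 1.47 and 1.84 in WT tumours. The 4 group means lay between 1.59 and 1.73 and did not differ beyond their spread. The arrays within KO stroma varied more (SD 0.78) than those of the other 3 groups (SD 0.11 to 0.23).

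Notch2, which is found in many tissues, was at 0.08, 0.49 and -0.14 in KO stroma and -0.34, -0.76 and -0.38 in WT stroma. The groups did not overlap, which also held for Hey1 among the 10 genes and for 26.3% of all genes. The difference of 0.63 missed the threshold (SE 0.26, limma adjusted p = 0.181). A second Notch2 probe, above background on the same arrays, gave a difference of only 0.09. In epithelium Notch2 ran from -0.94 to -0.14 in KO and from -0.76 to -0.22 in WT tumours. It was higher in stroma than in epithelium in 5 of 6 tumours, by 0.38 (adjusted p = 0.141).

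Notch4 is a receptor of endothelial cells, and its locus is a known insertion site of the mouse mammary tumour virus. It was near or below background in epithelium, where 3 of 6 arrays passed, and stood at 0.73, 1.34 and 1.04 in KO stroma against 1.15, 0.07 and 0.29 in WT stroma. It was above background on all 3 KO stroma arrays and on 1 of 3 WT stroma arrays. The groups overlapped through WT replicate 1, and the difference was 0.53 (SE 0.27, limma adjusted p = 0.300). Stroma exceeded epithelium in 5 of 6 tumours, by 0.54 (adjusted p = 0.107). The genes closest to Notch4 over the 12 arrays were Sox18, which is on the endothelial list, at a correlation of 0.909, and 6430548M08Rik (0.908) and Clec4b1 (0.905), which are not. Notch4 was above background on 7 of these arrays.

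Notch1, a broadly expressed receptor, gave the widest values. They were -1.42, -0.41 and 0.25 in the KO epithelium samples, and -0.04, 0.77 and 3.34 in those of WT. In stroma they were 0.04, 0.81 and -0.17 in KO and -0.88, -0.81 and 0.34 in WT tumours. The epithelial difference of -1.89 (SE 0.77) had the smallest unadjusted p of the 10 genes but a limma adjusted p of 0.613, and 8.08% of all genes had an unadjusted p under 0.05 there. Without WT replicate 3, the array at 3.34, it was -0.90. In stroma the difference was 0.68 (adjusted p = 0.670), and the genotype difference in stroma minus that in epithelium was 2.56 (adjusted p = 0.149).

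The readings of the Notch1 probe did not depend on the tumour channel alone. The same reference RNA was put on every array, yet the Cy5 signal of this probe spanned 3.43 log2 units over the 12 arrays. The median span over all genes was 0.48, and only 0.697% of genes spanned more than this probe. Its Cy5 signal was 13.24 on WT epithelium 3, the array with 211 non-uniform spots, and 9.81 to 11.22 on the others. The log2 ratio of the probe also varied together with those of many other genes. Of 13268 genes, 111 had a correlation above 0.95 with Notch1, and 3 of the 111 were olfactory receptors. Pramel48 (0.991), Zfp42 (0.988) and Sugct (0.988) led them. For comparison, the 9 other genes had from 0 to 8 such partners. On WT epithelium 3, where Notch1 stood at 3.34, the median of these genes was 2.80, a closeness that their choice fixes. The second Notch1 probe was not above background on any array in either channel and could not serve as a check. What the first probe measures was not tested, and the Notch1 values are given as those of the probe.

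**Figure D3:**
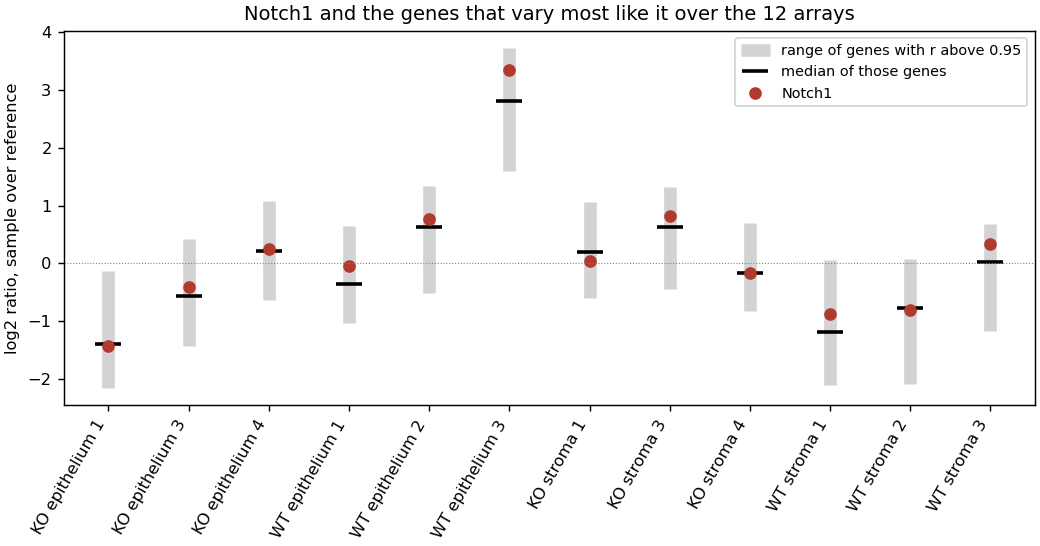
Log2 ratio of the Notch1 probe on each of the 12 arrays (points) beside the median and range of the 111 genes whose ratios correlate with it above 0.95 (black bars and grey ranges). The Notch1 points run from -1.42 on KO epithelium 1 to 3.34 on WT epithelium 3, and their closeness to the median follows from how the 111 genes were chosen.

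Of the ligands, Dll1 had the largest differences. Its probe was printed in 10 spots, and its log2 ratio in epithelium was 2.78, 3.35 and 1.47 in KO and 4.61, 2.34 and 1.83 in WT tumours. In stroma it was 0.42, 1.90 and 1.06 in KO and 3.09, 1.67 and 2.18 in WT tumours. The stromal groups overlapped, and the difference of -1.19 missed the threshold (SE 0.74, limma adjusted p = 0.399), as did the epithelial difference of -0.39 (adjusted p = 0.927). Stroma was below epithelium in 5 of 6 tumours, by 1.01 on average (a difference of -1.01, adjusted p = 0.0775). In the reference RNA, Dll1, Jag2 and Notch4 were not well above background on any array, so the size of their ratios is bounded by the reference, while differences between groups rest on the Cy3 signal.

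Jag2, a ligand of the Jagged family, was in epithelium at 0.68, 1.43 and 0.45 in KO and 1.53, 0.81 and 0.46 in WT tumours. In stroma it was 0.03, 0.57 and 0.13 in KO and 0.67, 0.15 and 0.57 in WT tumours, and above background on 3 of these 6 arrays. It was lower in stroma in 5 of 6 tumours, by a difference of -0.54 (limma adjusted p = 0.0719). Dll1 and Jag2 moved together over the 12 arrays, at a correlation of 0.921, and Dll1 was 1 of the 3 genes closest to Jag2. Dll1 and Hey1 were at 0.799.

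Jag1, a ligand found in several cell types, lay between -0.22 and 0.61 in epithelium and between 0.00 and 0.77 in stroma. Its largest genotype difference was 0.35 in stroma (limma adjusted p = 0.429). Dll4, the ligand of endothelial tip cells, lay between -0.24 and 0.38 over the 12 arrays. In epithelium it was -0.14, -0.09 and -0.07 in KO and 0.23, 0.19 and 0.00 in WT tumours. These groups did not overlap, which held for Dll4 alone of the 10 genes and for 14.1% of all genes, and the difference of -0.24 had an adjusted p of 0.729. In stroma Dll4 differed by -0.13 (adjusted p = 0.716).

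**Figure D4:**
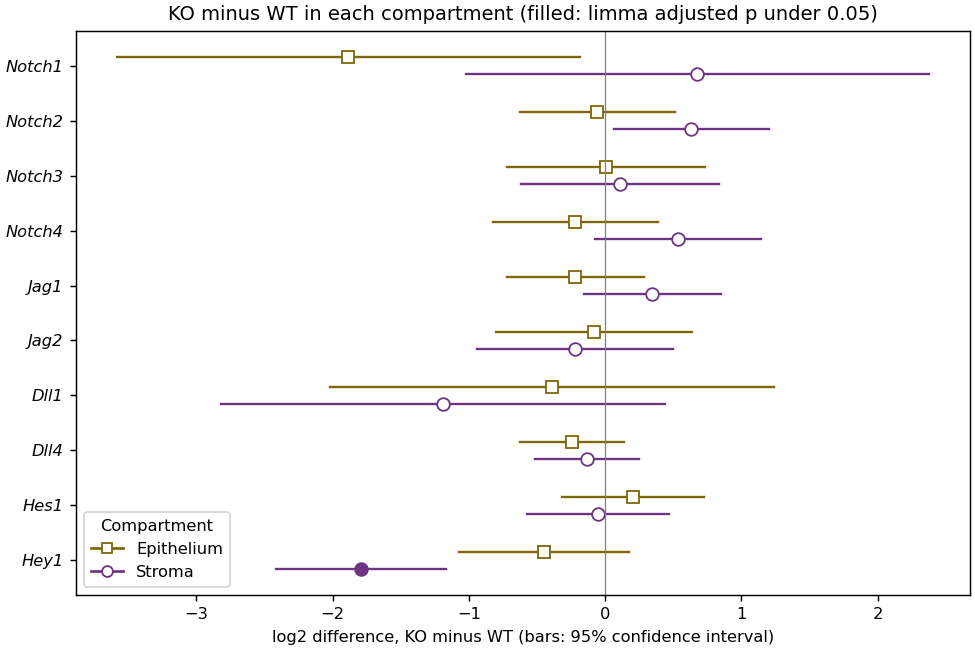
KO minus WT difference of the log2 ratio (horizontal axis) with its 95% interval for the 10 Notch genes, in epithelium and in stroma, filled where the limma adjusted p was under 0.05. Hey1 in stroma, at -1.79, is the only filled point.

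In epithelium, none of the 10 genes passed the limma test between genotypes, where 0.00749% of all genes did. Notch1 alone had an unadjusted p under 0.05. The median difference of the 10 genes was -0.22 there, against 0.03 over all genes, and 0.03 in stroma, against -0.01.

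Between the compartments of one tumour, Hey1 was the only Notch gene past the threshold, lower in stroma with a mean difference of -0.72 (SE 0.14, limma adjusted p = 0.0218), where 15.0% of all genes passed, 8.36% higher and 6.62% lower. An unadjusted p under 0.05 was reached by 5 of the 10 (Hey1, Dll1, Jag2, Notch2 and Notch4) and by 31.2% of all genes. This call rested on the KO tumours and was kept in 9 of 14 other settings. Without KO replicate 1, KO replicate 3 or WT replicate 1 no member passed, and without WT replicate 3 Jag2 passed (adjusted p = 0.0423) while Hey1 did not (0.0635). None of the 10 genes had the same direction in all 6 tumours, which 15.0% of all genes had. Hey1, Dll1, Jag2 and Hes1 were each lower in stroma in 5 of 6 tumours, and Notch2 and Notch4 higher in 5. Notch1 was higher in 2, Notch3 in 3, and Jag1 and Dll4 in 4 of the 6. The share of all genes with 5 of 6 tumours in one direction was not counted, so these counts show no trait of the Notch genes. The Hey1 differences in WT tumours were near 0, at -0.02, 0.09 and -0.21, and Hes1 was not well above background on any stromal array.

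**Figure D5:**
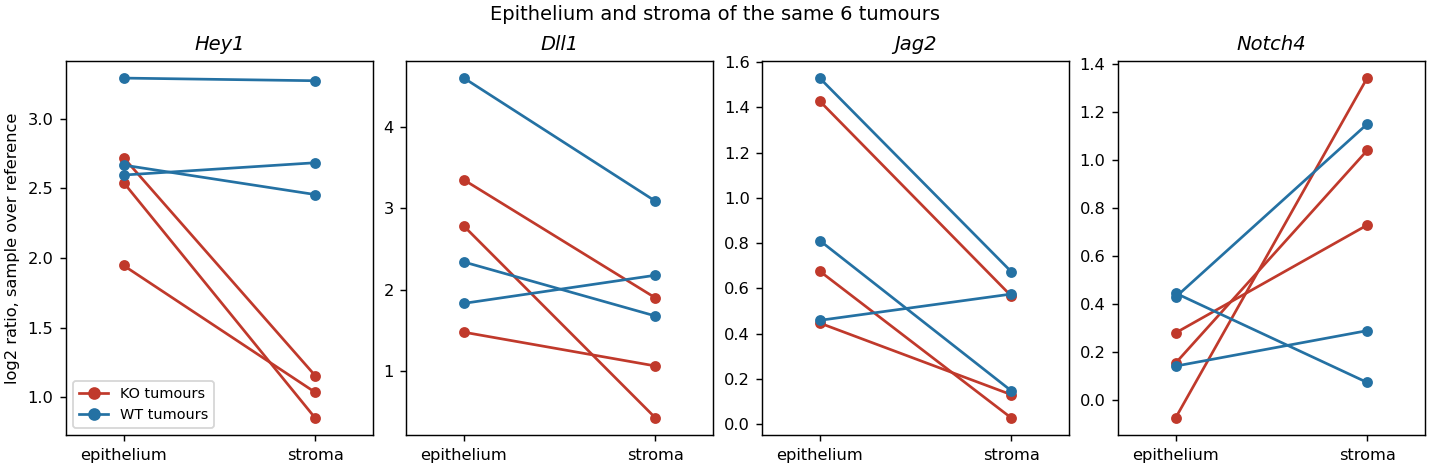
Log2 ratio of Hey1, Dll1, Jag2 and Notch4 (vertical axis) in epithelium and stroma of the same tumour, joined by a line, red for KO and blue for WT tumours. The Hey1 lines fall in the 3 KO tumours, by 0.91 to 1.69, and are nearly level in the 3 WT tumours.

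The KO tumours by themselves had 1 of the 10 genes past the threshold between compartments (Hey1, lower), where 20.0% of all genes passed, 10.2% higher and 9.85% lower. The same 5 genes as above had an unadjusted p under 0.05 there, as did 34.9% of all genes. Notch4 at 0.92 (limma adjusted p = 0.0566), Notch2 at 0.73 (0.0569) and Dll1 at -1.41 (0.0697) lay just outside it. The WT tumours had none, where 0.00749% of genes passed and 8.83% had an unadjusted p under 0.05. Notch1 at -1.80 (adjusted p = 0.430) was the 1 Notch gene with an unadjusted p under 0.05 in WT tumours.

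A list of 65 further genes of the pathway (modifiers, proteases, cofactors and other targets) had 53 measured. In KO against WT stroma, 3 of the 53 were higher and 2 lower, beside 3.52% and 2.93% of all genes, and their median difference was 0.12. The higher ones were Dlk1, a non-canonical ligand-like protein, at 2.17 (limma adjusted p = 0.0460), Neurl1b, a ubiquitin ligase acting on ligands, at 1.14 (0.0279), and Numbl, a relative of the inhibitor Numb, at 0.91 (0.0268). The lower ones were Snw1, a cofactor of the nuclear complex, at -0.75 (0.0339), and Gmds, an enzyme that makes the fucose donor for receptor glycosylation, at -0.97 (0.0345). These calls were lost in several other settings, and Dlk1 kept its call in 4 of 14. Numbl was above background on all 3 KO stroma arrays and on none of the WT stroma arrays, and it was at least 1.57-fold higher in KO than in WT stroma.

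In epithelium none of the 53 passed the limma test, while 8 had an unadjusted p under 0.05, beside 8.08% of all genes, and the smallest p values were those of Maml3 (a coactivator, -1.19) and Adam10 (the protease that cuts bound receptors, 0.58), both at an adjusted p of 0.613. Between compartments 4 of the 53 passed as higher in stroma and none as lower, beside 8.36% and 6.62% of all genes. They were Dlk1 at 2.85 (limma adjusted p = 0.00582), Mfng, a glycosyltransferase that modifies receptors, at 2.10 (0.0316), Numbl at 0.71 (0.0337) and Psen2, a catalytic subunit of gamma-secretase, at 0.59 (0.0374). In KO tumours alone the same comparison gave 5 higher, Neurl1a in addition to those 4, and 2 lower (Ctbp2 and Gmds). The shares of all genes there were 10.2% and 9.85%. The WT tumours gave none, while 4 of the 53 had an unadjusted p under 0.05, beside 8.83% of all genes. In the test of whether the genotype difference varied between compartments none passed. There 6 of the 53 had an unadjusted p under 0.05, beside 18.1% of all genes, the smallest p being that of Dtx4 at 2.24 (limma adjusted p = 0.121).

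Heyl, a Hey1 relative known from vascular mural cells, had its highest group mean in KO stroma, where Hey1 had its lowest. It was at 3.19, 2.28 and 4.37 in KO stroma and 1.05, -0.11 and 2.54 in WT stroma, while its mean in epithelium was 0.98 ± 0.47 in KO and 1.20 ± 0.16 in WT tumours. The stromal groups overlapped through KO replicate 3 and WT replicate 3, and the difference of 2.12 missed the threshold (SE 0.64, limma adjusted p = 0.0754). The fibroblast, macrophage, endothelial, pericyte, adipocyte and erythroid lists were all higher in KO than in WT stroma, by the values given above. The luminal, basal and lymphocyte lists were lower there. The part of any of those cells in the Heyl values was not tested. The other targets gave no call. Hes5 averaged 1.10 ± 0.93 and 0.39 ± 0.12 (SD, n = 3) in KO and WT epithelium and 0.41 ± 0.16 and 0.64 ± 0.63 in KO and WT stroma. Nrarp, a feedback inhibitor, was above background on 3 arrays, all epithelial. Hey2 was above background on 2 arrays and Lfng on none, so neither was tested. Rbpj, the DNA-binding partner, was at -1.25, -1.27 and -1.21 in KO stroma and -1.99, -1.89 and -1.65 in WT stroma, groups that did not overlap, as for 26.3% of all genes. The difference of 0.60 missed the threshold (SE 0.18, adjusted p = 0.0723). In epithelium Rbpj averaged -1.85 in KO and -1.87 in WT tumours.

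The genes closest to the other members over the 12 arrays were Cavin1 (0.953), Ablim3 (0.951) and Galnt16 (0.935) for Notch2, Rab42 (0.888), Uimc1 (0.885) and Atp5k (0.879) for Notch3, and 6430548M08Rik (0.908) and Clec4b1 (0.905), after Sox18, for Notch4. For the ligands they were Manba (0.916), Lifr (0.896) and Slc43a1 (0.896) for Jag1, Ackr4 (0.931), Dll1 and Rai2 (0.911) for Jag2, Ptger2 (0.959), Tceal3 (0.945) and Tceal6 (0.938) for Dll1, and Vmn2r20 (0.895), Mlec (0.888) and Gnai2 (0.877) for Dll4. Hes1 was closest to Exo1 (0.888), Chmp6 (0.877) and Nr1h5 (0.873). These are Pearson correlations, chosen as the highest of 13268, and are given as a description.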

How the data were processed

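The 12 two-colour Agilent arrays were read with Feature Extraction, per the file headers. The deposited spot intensities are median pixel values of each channel with local background. The scanner's log10 ratios, deposited as Cy5 over Cy3, served only to check the direction. A deposited table of log2-scale values, whose making the authors do not describe in the sources used here, matched its arrays for epithelium only (r from -0.925 to -0.895, so reference over sample). Its 6 stromal columns did not match their own arrays (r from -0.0050 to 0.0018) and were not used. Its base and centring stay unknown.

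Background was corrected by normexp (offset 50). Loess was run per array, giving control spots no weight, and ratios were turned to sample over reference. Flagged non-uniform and outlier spots were set missing. Spots of a probe were averaged, probes were named through their accession in RefSeq (GRCm38.p6), and the brightest probe above background in Cy3 on at least 3 arrays stood for its gene. The labels' protocols describe amplified RNA, which limits the precision as does the number of arrays. Tests used limma 3.58.1 in R 4.3.3, with 4 group means for genotype and with tumour as a fixed block for compartment, p-values adjusted by Benjamini-Hochberg over all 13351 genes (threshold 0.05). The genotype fit for stroma was checked on simulated data with independent noise per array and no tumour effect, which does not test the blocked fits. Alternatives were Agilent's processed signals, scaled ratios, Cy3 alone, filters, probe means, array weights, blocks and leaving out each replicate or tumour.

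Titles pair the compartments of a tumour. In deviation from group means, epithelium and stroma of 1 tumour correlated at 0.0909 to 0.454, each above the other stromas of the same genotype. Stromas of the other genotype were not compared. The text names all 10 members, up to 6 called pathway genes per direction by p (or, with no call, the 2 of lowest p), 7 further pathway genes, the 3 genes most correlated with a member and up to 3 leading markers per list. The markers Foxa1, Trp63, Sox18 and Procr lie outside the leading 3 of their lists and were named with their values known. Members and lists were chosen with earlier results of these data known. The adipocyte (6 measured), erythroid (4) and lymphocyte (8) lists had no gene called between genotypes by limma.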

Additional observations from a re-analysis of the deposited data

How the results depend on the processing

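The number of Notch genes past the threshold was 0 between genotypes in epithelium and 1 (Hey1) in stroma under every alternative that was run, and 0 for the genotype difference in stroma minus that in epithelium. Between compartments the count of 1 became 0 with Agilent's processed signals and 2 with array weights (Hey1 and Jag2), and ranged from 0 to 1 when each tumour was left out. With tumour as a random replicate block (correlation 0.223), Hey1 in stroma kept its difference of -1.79 at a limma adjusted p of 0.00754, and the block changed no call among the 10 genes. Without the block, 1 member and 1814 genes passed between compartments, and 50 genes against 0 for the stromal minus the epithelial genotype difference. That last count reached 165 with scaled ratios. In stroma 175 to 885 genes passed when a replicate was left out, and 294 to 991 otherwise, against 861. With Agilent's processed signals the stromal calls split into 262 higher and 277 lower, against 470 and 391.

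Signs turned only for differences that passed no test. In epithelium Jag2 became 0.015 with processed signals, 0.0022 with scaled ratios and 0.0033 in the deposited table, Notch2 became 0.033 with Cy3 alone, and Notch3 became -0.021 with array weights and -0.069 in the deposited table. In stroma Hes1 became 0.039 with Cy3 alone. Between compartments Notch3 became 0.011 with scaled ratios. For the stromal minus the epithelial genotype difference, Notch3 became -0.059 with scaled ratios and -0.18 with Cy3 alone, and Dll4 -0.057 with Cy3 alone. Leaving out replicates gave ranges across 0 in epithelium for Jag2 (-0.37 to 0.21), Notch3 (-0.10 to 0.13), Dll1 (-0.94 to 0.45), Notch2 (-0.29 to 0.12) and Hes1 (-0.054 to 0.39). The same held in stroma for Dll4 (-0.23 to 0.040), Hes1 (-0.19 to 0.063) and Notch3 (-0.16 to 0.56), and between compartments for Notch3 (-0.22 to 0.078). For the stromal minus the epithelial genotype difference it held for Notch3 (-0.16 to 0.43), Hes1 (-0.40 to 0.0019) and Jag2 (-0.33 to 0.15). The cause was not tested. Requiring signal on all 12 arrays left 4 of the 10 genes.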
